A study of Mus musculus with 6 samples.

Results

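Amacrine cells are the inhibitory interneurons of the inner retina, and their identity rests on a set of transcription factors that includes Tfap2a, Tfap2b, Tfap2c, Pax6, Ebf1, Ebf3, Neurod6, Meis2, Barhl2 and Bhlhe22. These 10 genes were followed by taking every probe set that carries their symbol alone in the platform annotation, without reference to its value. This gave 27 of the 45101 probe sets on the array, for 9 of the 10 genes, since no probe set listed for Bhlhe22 was available here. Retinas came from adult mice deficient for Onecut2 (OC2-KO, n = 3 arrays) and from adult wildtype littermates (OC2-WT, n = 3 arrays), and all 6 arrays are labelled as adult retina with no drug or other agent. The age in weeks, the strain background and the sex are not given in the labels. The mice were genotyped for a null allele of Onecut2, and no Cre driver is named, so nothing limits the mutation to retina or to 1 cell type. The comparison asks whether genes of cell types other than horizontal cells differ in the mature OC2-KO retina.

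During retinal development, amacrine and horizontal cells arise from overlapping pools of early precursors. Foxn4 and Ptf1a commit precursors to both fates, Onecut1 and Onecut2 direct cells towards the horizontal fate, and the AP-2 factors Tfap2a and Tfap2b act in both lineages. Pax6 keeps progenitors multipotent and stays on in mature amacrine, ganglion and horizontal cells, so Pax6, Tfap2a and Tfap2b are not markers of amacrine cells alone.

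Intensity is given throughout on the log2 scale of the values normalised by the authors, and a probe set was tested only if the mean of either genotype exceeded 7. The 3 Onecut2 probe sets, which lie at the 3' end of the gene per the study and therefore do not check the loss of the protein, had higher values on every OC2-KO array than on every OC2-WT array, by 2.27 to 2.84. Apart from the arrays, the study reported almost no 5' coding sequence by qPCR and no OC2 protein by immunohistochemistry in OC2-KO, both as data not shown. Arrays carrying the same replicate number deviated together and are called pairs. The arrays of pair 3 stood apart in RNA quality, with a 3' minus 5' difference for Actb of 2.95 and 3.39 against 0.71 to 1.41 on the other 4 arrays, and by Xist this pair set a female OC2-WT pattern beside a male OC2-KO pattern. Retinal genes were read on the arrays, with 19 of 23 amacrine effector genes, 11 of 13 ganglion cell genes and 9 of 11 photoreceptor genes above the filter. So were 7 of 7 lens genes and 5 of 7 pigment epithelium genes. Passing the filter therefore does not set retina apart from these tissues. Nothing in the labels ties an array to an animal of its own, and the p-values therefore reflect array-to-array spread that may in part be technical.

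None of the 8 amacrine transcription factors that could be tested passed adjustment between OC2-KO and OC2-WT adult retina. Of the 27 probe sets, 22 passed the filter and 5 did not, and 8 of the 10 genes kept at least 1 probe set. No probe set of these genes passed adjustment (limma, 0 of 22, against 0% of the 21176 probe sets tested). Without the pair as a block, 0 of 22 reached an unadjusted p of 0.05 (limma), against 0.987% of all probe sets. With it 3 of 22 did, all lower in OC2-KO, against 4.19% of all probe sets, and 0 passed adjustment. The methods' t-test also gave 0 of 22 at the unadjusted threshold, against 1.42% of all probe sets. The genotypes overlapped on all 22 probe sets, while 3.28% of all probe sets had no overlap. The means nonetheless leaned one way. The OC2-KO mean was below the OC2-WT mean on 18 of 22 probe sets, against 51.9% of all probe sets. On the brightest probe set this held for 8 of 8 genes, against 51.2% of all genes. Over these 8 genes the median log2 difference was -0.22, with a range from -0.46 to -0.05, beside -0.005 over all 11065 genes. The lean was widest in pair 1, as described further down. Lower means were not particular to these genes. Of 13 bipolar cell genes above the filter, 11 had a lower and 2 a higher mean, with a median of -0.30. In whole retina, fewer amacrine cells and less of a transcript per cell cannot be told apart from the arrays alone. By antibody staining of adult OC2-KO retina, the study counted no significant change in cells marked by Pax6 or in amacrine cells marked by calbindin. Horizontal cells, which also express Pax6, Tfap2a and Tfap2b, were reduced in those counts. The part of either cell type in the array values was not tested.

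**Figure D1:**
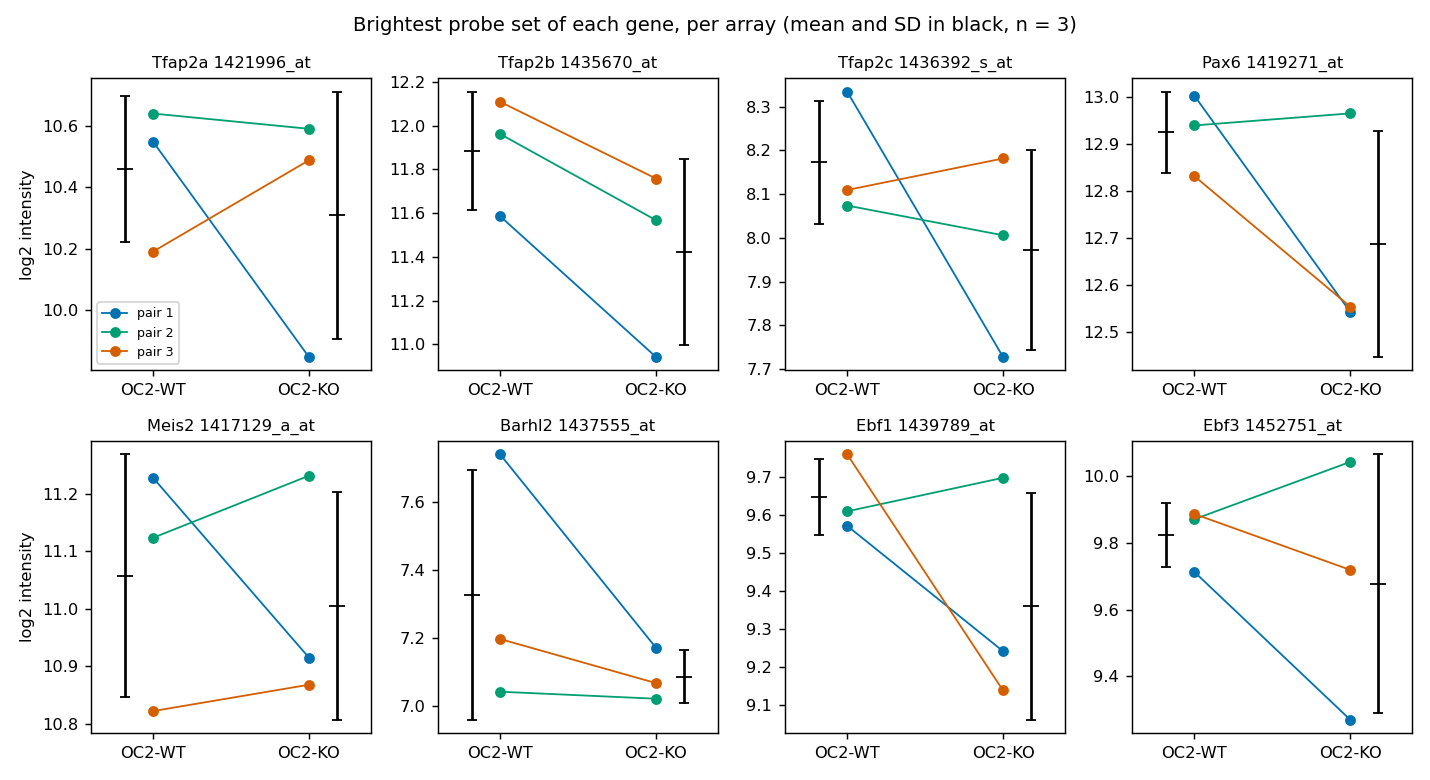
Log2 intensity (vertical axis, scaled panel by panel) of the brightest probe set of each of 8 genes for the 6 arrays, split by genotype along the horizontal axis, with lines joining arrays of a pair and black marks for the mean and SD of 3 arrays. The genotypes overlap in every panel, and the line of pair 1 falls from OC2-WT to OC2-KO in all 8.

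The AP-2 factors Tfap2a, Tfap2b and Tfap2c bind DNA as dimers through a shared carboxy-terminal domain, and in retina they are expressed after cell cycle exit. Tfap2b had the largest difference among the brightest probe sets of the 8 genes. Its probe set 1435670_at stood at 11.59, 11.96 and 12.11 on the OC2-WT arrays of pairs 1, 2 and 3 and at 10.94, 11.57 and 11.76 on the OC2-KO arrays. The highest OC2-KO array lay above the lowest OC2-WT array, but within each pair OC2-KO was lower, by -0.64, -0.39 and -0.35. The mean difference was -0.46 ± 0.29 (SE), a 1.38-fold higher level in OC2-WT, with a 95% interval from -1.14 to 0.21 (limma, adjusted p = 1.00). With the pair as a block the SE shrank to 0.16 and the unadjusted p was 0.0296, though the adjusted p was 0.999. The second Tfap2b probe set, 1423340_at, read 10.30, 10.66 and 9.85 in OC2-WT, against 9.55, 10.60 and 10.17 in OC2-KO. Its mean difference was -0.16 ± 0.34 (SE). On it the pairs disagreed, at -0.75, -0.059 and 0.32, so the same sign in 3 of 3 pairs was seen on the first probe set and not on the second.

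Of the 11 promoters listed for 8 of the 10 genes, the Tfap2b promoter was the only one holding ATCAAT or its reverse complement ATTGAT, the core of the site that Onecut proteins bind, and it is shown for that reason. It is 300 bases of RefSeq sequence from build GRCm38.p6, chr1:19211804-19212103, plus strand, with 250 bases before the transcription start and 50 after it, and the capitals mark the match, which begins at base 248.
Tfap2b promoter: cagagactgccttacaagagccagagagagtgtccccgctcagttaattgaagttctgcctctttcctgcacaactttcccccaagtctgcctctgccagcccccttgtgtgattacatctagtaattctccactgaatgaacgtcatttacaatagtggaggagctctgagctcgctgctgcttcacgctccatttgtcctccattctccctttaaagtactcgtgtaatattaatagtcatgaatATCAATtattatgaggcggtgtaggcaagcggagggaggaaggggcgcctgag
The letters occur on either strand in 7.54% of the 32851 promoters in the table, so 1 in 11 is close to that share. The related palindrome ATCGAT occurred in 0 of the 11 and in 0.925% of all promoters. A match in these windows is a description of the letters and does not show binding.

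Tfap2a and Tfap2b are co-expressed in developing amacrine and horizontal cells. For Tfap2a, probe set 1421996_at read 10.55, 10.64 and 10.19 in OC2-WT, against 9.85, 10.59 and 10.49 in OC2-KO. Only the OC2-KO array of pair 1 lay below the OC2-WT range, and the difference was -0.15 ± 0.28 (SE), with a 95% interval from -0.80 to 0.50. The weaker 1426048_s_at differed by -0.32 ± 0.32 (SE) and was lower in 3 of 3 pairs, by -0.73, -0.060 and -0.16. The third, 1421995_at, did not pass the filter, with values from 5.18 to 6.66.

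Tfap2c marks a subset of amacrine cells. On 1436392_s_at it read 8.33, 8.07 and 8.11 in OC2-WT, against 7.73, 8.01 and 8.18 in OC2-KO, so that only the OC2-KO arrays of pairs 1 and 2 fell below every OC2-WT array. The difference was -0.20 ± 0.22 (SE). Probe set 1418147_at differed by -0.14 ± 0.28 (SE). On 1448977_at the OC2-WT array of pair 3 read 5.43 against 7.93 and 8.18 on the other OC2-WT arrays, and the difference of 0.34 ± 0.71 (SE) rests on that array, since it was -0.53 without it.

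Pax6, a paired box and homeodomain factor, was measured by 5 probe sets, which did not move alike. The brightest, 1419271_at, read 13.00, 12.94 and 12.83 in OC2-WT, against 12.54, 12.97 and 12.55 in OC2-KO. The OC2-KO arrays of pairs 1 and 3 lay below all OC2-WT arrays while that of pair 2 lay among them, and the difference was -0.24 ± 0.22 (SE). Its 95% interval ran from -0.75 to 0.27, or from 0.595-fold to 1.21-fold of the OC2-WT level.

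The widest swing was on 1452526_a_at, at 10.47, 10.18 and 7.99 in OC2-WT, against 9.69, 10.08 and 6.78 in OC2-KO. Both arrays of pair 3 were below the other 4 on 4 of 22 probe sets (19.9% of all), and by more than 1 log2 unit on this 1 of 22 (2.18% of all). These are the arrays with the high 3' minus 5' difference for Actb. The part of RNA quality in this value was not tested. The difference was -0.69 ± 0.99 (SE). Within pairs it was -0.78, -0.093 and -1.20, which gave an unadjusted p of 0.0327 with the pair as a block (limma, adjusted p = 0.999).

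Probe set 1456342_at went the other way, with 7.11, 6.98 and 6.70 in OC2-WT, against 6.89, 7.54 and 7.25 in OC2-KO. The mean was higher in OC2-KO by 0.29 ± 0.25 (SE), with overlap. It passed the filter only through its OC2-KO mean of 7.22, the only one of the 22 to pass through 1 genotype. The remaining probe sets, 1425960_s_at and 1437816_at, stayed below the filter with differences of -0.56 and -0.32.

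Meis2, a homeodomain factor of the TALE class that partners with other homeodomain proteins, had the smallest difference of the 8 genes. On 1417129_a_at it read 11.23, 11.12 and 10.82 in OC2-WT, against 10.92, 11.23 and 10.87 in OC2-KO, so the genotypes covered much the same range. The difference was -0.05 ± 0.22 (SE), with a 95% interval from -0.58 to 0.47. Probe sets 1457632_s_at and 1447861_x_at differed by 0.02 ± 0.22 (SE) and 0.06 ± 0.32 (SE). On 1440091_at the arrays ranged from 8.02 to 10.01 within OC2-WT alone, and its difference of -0.33 ± 0.62 (SE) lay well inside that spread.

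Barhl2, a homeodomain factor needed for amacrine subtype specification, has 1 probe set, 1437555_at, close to the filter. It read 7.74, 7.04 and 7.20 in OC2-WT, against 7.17, 7.02 and 7.07 in OC2-KO. The OC2-WT array of pair 1 alone stood clear of the rest. The difference was -0.24 ± 0.25 (SE), lower in 3 of 3 pairs by -0.57, -0.021 and -0.13.

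Ebf1 and Ebf3 are helix-loop-helix factors of the COE family, found in amacrine cells and in ganglion cells. Ebf1 had 4 probe sets above the filter, and all had a lower mean in OC2-KO, by -0.04 to -0.29. The brightest, 1439789_at, read 9.57, 9.61 and 9.76 in OC2-WT, against 9.24, 9.70 and 9.14 in OC2-KO, with the OC2-KO arrays of pairs 1 and 3 below all OC2-WT arrays. The difference was -0.29 ± 0.23 (SE). On 1416302_at OC2-KO was lower in 3 of 3 pairs, by -0.15, -0.33 and -0.13. Probe set 1416301_a_at differed by -0.29 ± 0.28 (SE), with pairs at -0.76, -0.39 and 0.28. The difference on 1448293_at was -0.04 ± 0.36 (SE), with pairs at -0.78, 0.26 and 0.39. The remaining probe set, 1457441_at, read from 1.89 to 5.76, far below the filter, and gave no usable difference.

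Ebf3 had 3 probe sets above the filter, all with a lower mean in OC2-KO. The brightest, 1452751_at, read 9.71, 9.87 and 9.89 in OC2-WT, against 9.27, 10.04 and 9.72 in OC2-KO. The highest and the lowest array were both OC2-KO, and the means differed by -0.15 ± 0.25 (SE). On 1460666_a_at the values were 8.35, 8.40 and 6.91 in OC2-WT, against 7.57, 8.13 and 5.95 in OC2-KO. Pair 3 was again the lowest in both genotypes, as on Pax6 1452526_a_at. The difference was -0.67 ± 0.64 (SE), lower in 3 of 3 pairs by -0.78, -0.27 and -0.96, with an unadjusted p of 0.0156 with the pair as a block (limma, adjusted p = 0.999). The other probe set, 1428349_s_at, differed by -0.51 ± 0.61 (SE), and its pairs stood at -1.36, 0.26 and -0.44.

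**Figure D2:**
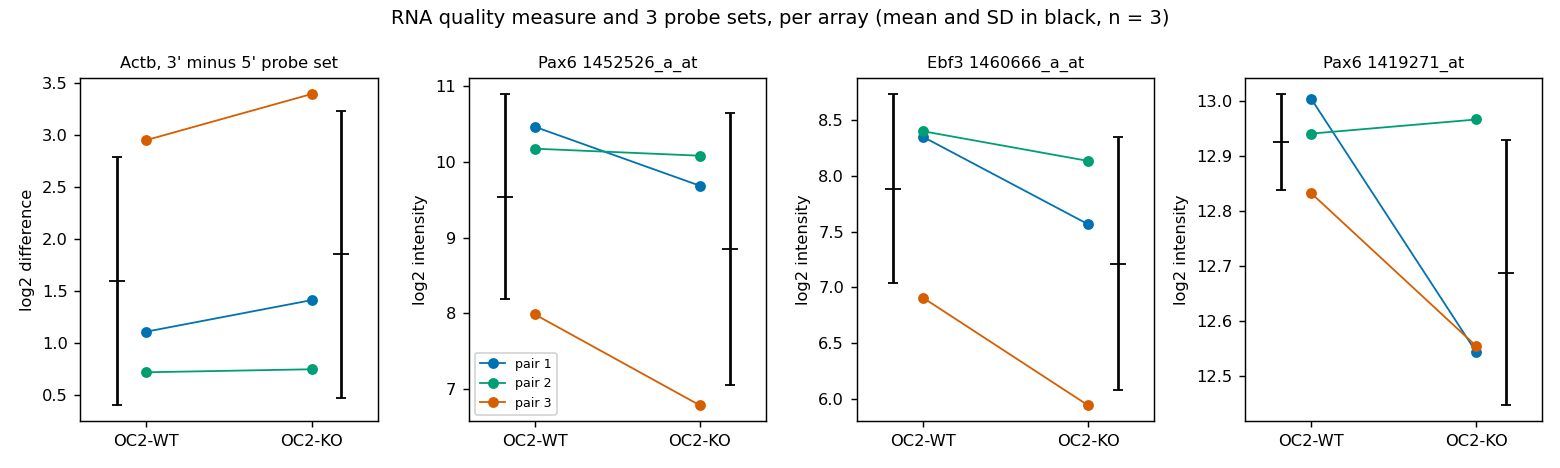
Actb 3' minus 5' log2 difference (first panel) and log2 intensity of 3 probe sets (other panels), each with its own vertical scale, for the 6 arrays by genotype (horizontal axis), with lines joining pairs and black marks for the mean and SD of 3 arrays. Pair 3 is highest for Actb, at 2.95 and 3.39, and lowest on Pax6 1452526_a_at and Ebf3 1460666_a_at, but not set apart on Pax6 1419271_at.

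The bHLH factors of the set could not be read in these arrays. Neurod6, which marks amacrine cells that use neither GABA nor glycine, has 1 probe set, 1418047_at, below the filter. It read 5.97, 3.65 and 2.58 in OC2-WT, against 1.77, 5.60 and 5.96 in OC2-KO, with each genotype spanning over 3 log2 units, so no difference is given. Bhlhe22, a transcriptional repressor required for specifying subtypes of amacrine and bipolar cells, was not analysed here.

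Without the pair as a block, the intervals of all 22 tested probe sets included 0. With the block, those of Tfap2b 1435670_at, Pax6 1452526_a_at and Ebf3 1460666_a_at did not, before any adjustment. The 3 of the 22 with a log2 difference below -0.5 were Pax6 1452526_a_at, Ebf3 1460666_a_at and Ebf3 1428349_s_at, 13.6% of the 22 against 3.62% of all probe sets, and each had an SE of at least 0.61 without the block. With it the SE was 0.24, 0.20 and 0.32 in the same order, since much of their spread lay between pairs. The median SE without the block was 0.28 over the 22 and 0.29 over all probe sets.

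**Figure D3:**
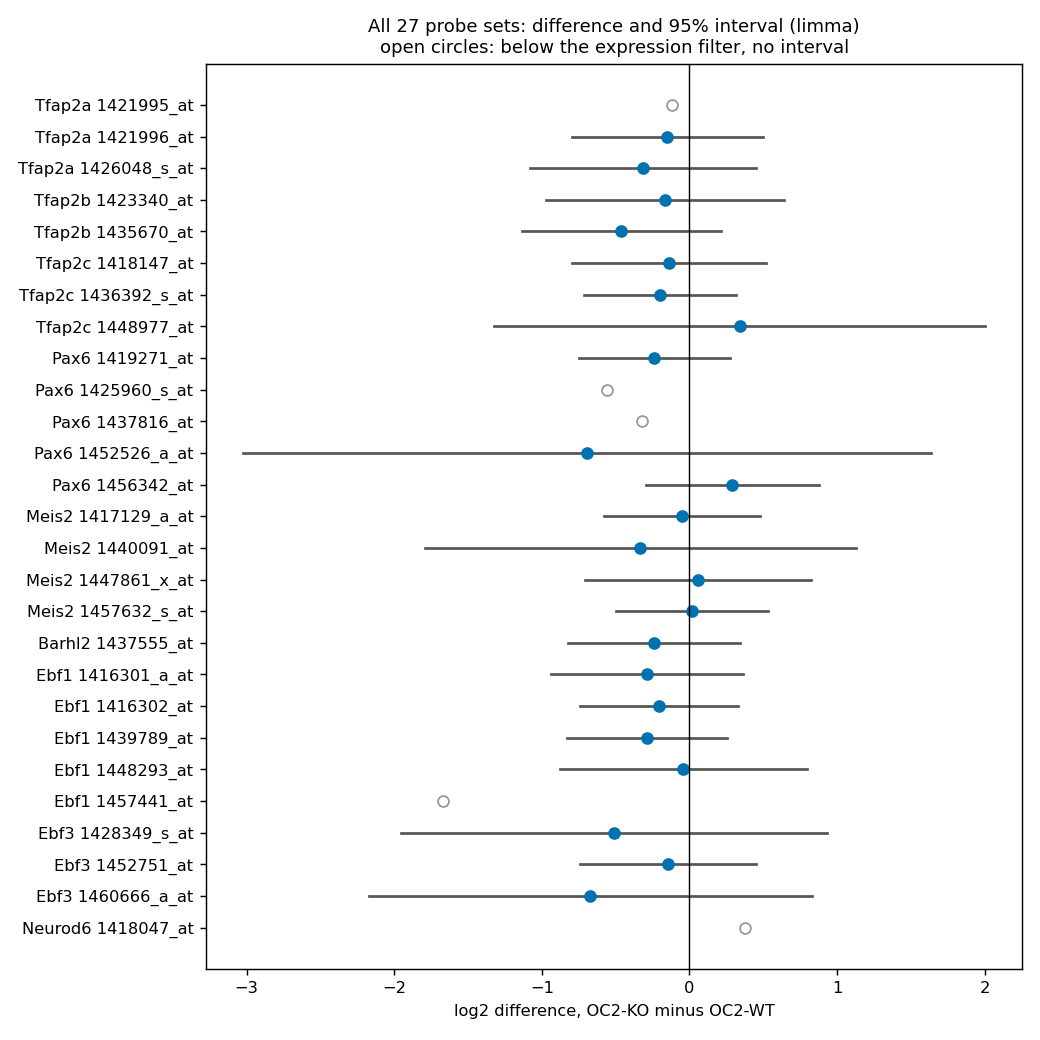
Log2 difference, OC2-KO minus OC2-WT (horizontal axis), for each of 27 probe sets (vertical axis), with filled circles and 95% limma intervals for the 22 above the filter and open circles without interval for the 5 below it. All 22 intervals, from the fit without the block, include 0, and 18 of 22 filled circles lie left of it.

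The lean towards lower values was widest in pair 1. In pair 1 the OC2-KO array was below its OC2-WT partner on 21 of 22 probe sets, against 52.5% of all probe sets, with a median difference of -0.62. In pair 2 this held for 13 of 22 (50.8% of all) with a median of -0.05, and in pair 3 for 11 of 22 (50.5% of all) with a median of -0.04. By gene, on the brightest probe sets, OC2-KO was lower for 8 of 8 in pair 1, 4 of 8 in pair 2 and 5 of 8 in pair 3. The shares over all genes were 49.9%, 51.5% and 50.9%. The medians over the 8 genes were -0.52, 0.003 and -0.15. The exception by probe set in pair 1 was Meis2 1440091_at, at 0.35. The OC2-KO array of pair 1 was the lowest of the 6 on 9 of 22 probe sets, against 23.5% of all. Without both arrays of pair 1 the median over the 8 genes was -0.04, and without its OC2-KO array alone it was -0.12 with 6 of 8 genes still lower. Probe sets of 1 gene share their transcript, so these counts cover 8 genes and not 22 independent measurements.

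Other cell types moved in pair 1 as well. There all 9 measured photoreceptor genes were higher on the OC2-KO array than on its partner, with a median of 0.47, and their summed intensity was 298431 against 196962. Over all arrays that sum ran from 153608 to 445724 in OC2-WT and from 145773 to 382435 in OC2-KO, so the genotypes overlapped. By mean over all arrays, 9 of the 9 photoreceptor genes were higher in OC2-KO, with a median of 0.12. None was lower, against 51.2% of all genes. Of the ganglion cell genes, 5 of 11 were lower in pair 1, with a median of 0.07. In the same pair 9 of 13 bipolar cell genes were lower (median -0.23), as were 5 of 8 Mueller glia genes (median -0.23), 4 of 5 pigment epithelium genes (median -0.50) and 7 of 7 lens genes (median -0.55), and of the blood genes 0 passed the filter. Of all genes, 49.9% were lower in pair 1. Such shifts were not limited to pair 1. The bipolar cell median was -0.31 in pair 2 and -0.23 in pair 3. Of these 13 genes, 6 were lower in 3 of 3 pairs and 0 higher in 3 of 3, against 12.1% and 10.9% of all genes. The lens gene median was 0.94 in pair 2 and 2.66 in pair 3, and the pigment epithelium median was 0.76 in pair 2 and -0.23 in pair 3. Summed lens intensity ran from 4990 to 55853 in OC2-WT and from 30280 to 47644 in OC2-KO. The part of the makeup of the dissected tissue in the values of any pair was not tested.

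Considered by pair, 6 of 22 probe sets were lower in 3 of 3 pairs, against 12.4% of all probe sets, and 0 were higher in 3 of 3, against 10.3%. The 6 were Tfap2a 1426048_s_at, Tfap2b 1435670_at, Pax6 1452526_a_at, Barhl2 1437555_at, Ebf1 1416302_at and Ebf3 1460666_a_at. With the pair as a block, 3 of 22 reached an unadjusted p of 0.05, against 4.19% of all probe sets, and all 3 were lower in OC2-KO (2.10% of all in that direction), and 0 passed adjustment (limma). These 3 were the probe sets of Tfap2b, Pax6 and Ebf3 with block p-values given above, and each of these genes had at least 1 other probe set that did not reach that threshold. On the brightest probe sets, 2 of 8 genes were lower in 3 of 3 pairs (12.1% of all genes) and 0 higher (10.9%). Of these 8 genes, 1 reached an unadjusted p of 0.05 with the block (limma), against 3.53% of all genes.

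**Figure D4:**
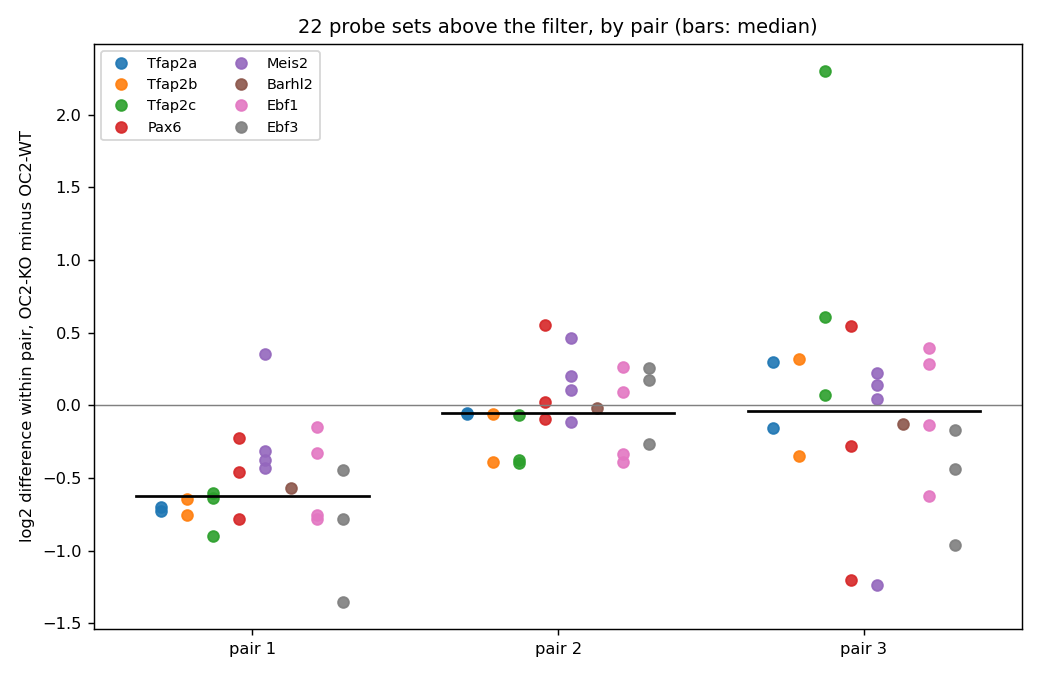
Log2 difference within each pair, OC2-KO minus OC2-WT (vertical axis), for 22 probe sets coloured by gene, by pair (horizontal axis), with black bars at the median. In pair 1 the points lie below 0 on 21 of 22 probe sets, and the medians are -0.62, -0.05 and -0.04 in pairs 1, 2 and 3.

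The other transcription factors of the amacrine programme were counted in the same way. Of a list of 33 such genes, 29 had a probe set and 22 passed the filter. Of these 22 genes, 14 had a lower and 8 a higher mean in OC2-KO, where 51.2% of all genes were lower. Their median log2 difference was -0.05, and 0 passed adjustment or an unadjusted p of 0.05 (limma). The 4 with the smallest p were Tbx2, a T-box factor (-0.61 ± 0.38, SE), Nr4a2, a nuclear receptor of dopaminergic neurons (0.36 ± 0.24, SE), the zinc finger factor Fezf2 (-0.81 ± 0.62, SE) and the LIM homeodomain factor Lhx9 (-0.34 ± 0.27, SE). For Tbx2 the OC2-KO array of pair 1 read 7.90 against 8.80 to 9.39 on the other 5. For Fezf2 it read 5.40 against 7.22 to 8.05, below all of them. Fezf2 passed the filter only through its OC2-WT mean of 7.67, against 6.86 in OC2-KO, so the filter itself favoured a lower OC2-KO mean there. In pair 1, 16 of the 22 genes were lower, against 49.9% of all genes, with a median of -0.24. The commitment factors Foxn4 and Ptf1a did not pass the filter in adult retina.

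Genes of amacrine transmission act in the mature cell. Of 19 effector genes above the filter, 11 had a lower and 8 a higher mean, where 51.2% of all genes were lower. Their median was -0.08, with 0 past an unadjusted p of 0.05 (limma). Tac1, which encodes substance P, differed by 0.49 ± 0.26 (SE), and with the pair as a block it had an unadjusted p of 0.0233 (limma, adjusted p = 0.999), a threshold that 3.53% of all genes passed in that fit. Th, the dopamine-synthesising enzyme gene, differed by -0.39 ± 0.23 (SE), the glycine transporter gene Slc6a5 by -0.28 ± 0.26 (SE) and the somatostatin gene Sst by -0.25 ± 0.24 (SE). Th and Slc18a3 passed the filter only through OC2-WT, with means of 7.10 and 7.16, against 6.71 and 6.93 in OC2-KO. Gad1, which makes GABA, differed by -0.10 ± 0.29 (SE).

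Horizontal cells share Pax6, Tfap2a and Tfap2b with amacrine cells, and their own genes are given beside these values. Of 12 genes on the horizontal cell list, 7 passed the filter, and 6 of the 7 had a lower mean, with Onecut2 itself the exception. Onecut1 passed only through its OC2-WT mean of 7.36, and Onecut2 only through its OC2-KO mean of 8.88. By pair, 6, 6 and 3 of the 7 were lower, with medians of -0.55, -0.46 and 0.14. Their summed intensity was 14287 to 17277 in OC2-WT and 9821 to 13049 in OC2-KO. The sum over the 8 amacrine factor genes was 16923 to 17792 in OC2-WT and 12365 to 17253 in OC2-KO. Calb1 and Septin4, named by the study as lower on these arrays, differed by -0.76 and -0.57. Calbindin, the product of Calb1, was also the study's antibody marker of horizontal cells. Apart from the arrays, the study reported a marked loss of these cells in OC2-KO retina by that staining, and lower Lhx1 by qPCR. Since Calb1 and Septin4 were named from these samples and contribute most of the summed intensity, the horizontal cell sum is not independent evidence of its direction. How much of the signal of Tfap2a, Tfap2b, Pax6 or any other of the 8 amacrine factor genes came from horizontal cells was not tested.

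**Figure D5:**
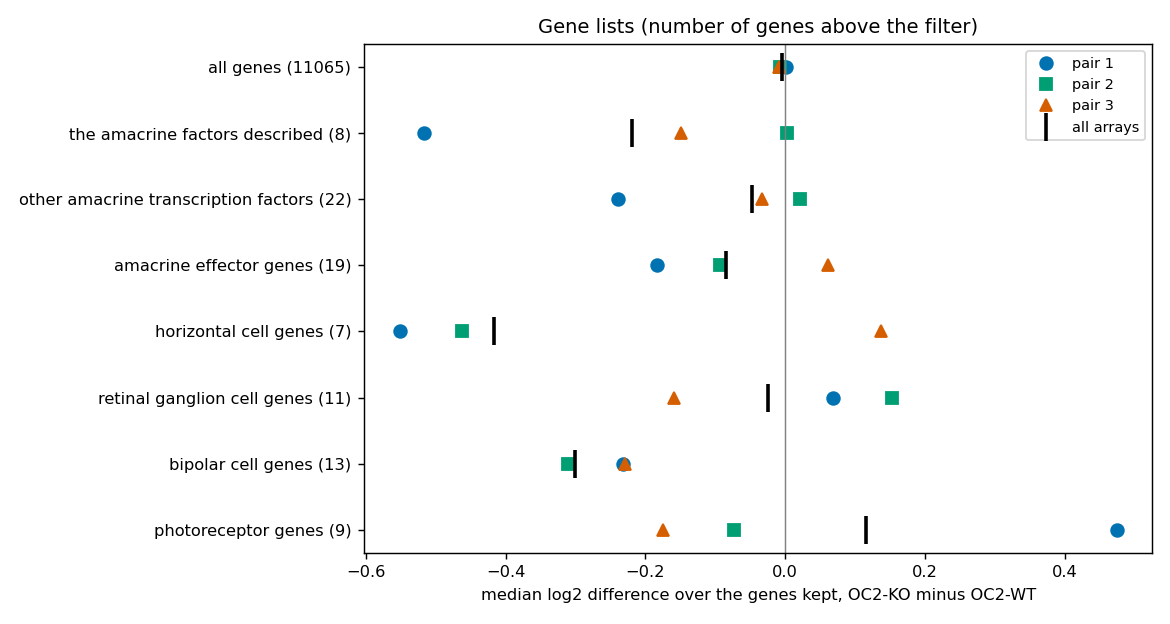
Median log2 difference, OC2-KO minus OC2-WT (horizontal axis), over the genes above the filter in each list (vertical axis, with the number of genes), for each pair (coloured symbols) and for all arrays (black bars). The amacrine factors stand at -0.52 in pair 1 and at 0.003 and -0.15 in pairs 2 and 3, while photoreceptor genes stand at 0.47 in pair 1.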

How the data were processed

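Retinal RNA was amplified, labelled with biotin and hybridised to Affymetrix mouse arrays of 45101 probe sets, which the authors normalised with MAS5, of a version not given in the sources used here. Values were deposited as linear intensities, and every array had the same mean of 500 after trimming 2% at each end, so a change shared by all genes cannot be seen. Detection calls and scanner files were not used here, and precision is limited by having 3 arrays per genotype. After log2 transformation and removal of 64 control probe sets, those were kept where the mean of either genotype exceeded 7, which left 21176. Differences were fitted in R 4.3.3 by limma 3.58.1 (lmFit, eBayes) on all 6 arrays, without a block, two-sided, with Benjamini-Hochberg adjustment over all probe sets kept. Genes were represented by their brightest probe set where lists were counted.

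Names came from the platform annotation, where 34945 probe sets had 1 symbol, and 34741 of them matched RefSeq genes of GRCm38.p6 by number. The 10 genes and all lists were chosen with earlier results of these data known. All 27 probe sets found for these genes are named, and of the other lists up to 4 genes by smallest p. Other genes (Gad1, Slc18a3, Foxn4, Ptf1a) were named after their values were seen.

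Arrays sharing a replicate number had correlated deviations from their genotype means (0.576, 0.590 and 0.585), whereas those with unlike numbers gave -0.429 to -0.135. Deviations cancel out within a genotype, so the unlike values are negative on balance once the like ones are positive, and are no separate evidence. Arrays with the same number were treated as pairs on the positive correlations alone. Alternatives covered the filter, scaling, variance model, weights, block, floor and left-out arrays.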

Additional observations from a re-analysis of the deposited data

How the results depend on the processing

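No probe set of the amacrine factors passed adjustment in any of the 10 alternatives with all arrays or the 9 that left out arrays, and the lowest adjusted p was 0.998. With the replicate block the count at an unadjusted p of 0.05 was 3 of 22, as it was with the block and an intensity trend together, a fit chosen after seeing the data. It was 0 of 27 without a filter, 0 of 17 with the filter at 8, and 0 of 22 in the others. That last fit also called 6 probe sets in all and put 1 other amacrine factor past the unadjusted threshold, which none of the other fits with all arrays did. Leaving out arrays gave 0 to 2 other amacrine factors, the 2 without OC2-KO replicate 2. The count of all probe sets at the unadjusted threshold was 209, and it was 1144 without a filter, 127 with a filter at 8, 436 with array weights, 887 with the block, 779 with the block and trend, and 560 without OC2-KO replicate 2. The median over the 8 genes stayed negative, from -0.33 without pair 2 to -0.04 without pair 1, where leaving out pairs 1 and 2 was chosen after seeing the data.

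Of the 22 probe sets, 10 never changed sign, but without OC2-KO replicate 3 Ebf3 1460666_a_at was at -0.04 and Ebf3 1428349_s_at at -0.06, and without OC2-KO replicate 1 Tfap2b 1435670_at was at -0.22. With array weights Tfap2c 1448977_at turned to -0.24. Leaving out arrays turned 12, with ranges of -0.38 to 0.12 for Tfap2a 1421996_at, -0.41 to 0.13 for Tfap2b 1423340_at, -0.52 to 0.11 for Tfap2c 1418147_at, -0.34 to 0.0020 for Tfap2c 1436392_s_at, -0.64 to 0.96 for Tfap2c 1448977_at and -1.47 to 0.34 for Pax6 1452526_a_at. They were -0.17 to 0.077 for Meis2 1417129_a_at, -0.94 to 0.12 for Meis2 1440091_at, -0.18 to 0.30 for Meis2 1447861_x_at, -0.087 to 0.21 for Meis2 1457632_s_at, -0.33 to 0.33 for Ebf1 1448293_at and -0.33 to 0.057 for Ebf3 1452751_at. The cause was not tested. With 3 arrays a genotype and no detection calls, the arrays could not show small differences, and the widths of the intervals set that limit.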
